A study of Homo sapiens with 15 samples.

Results

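The genes described here are 10 genes of the Hippo pathway read-out, namely 5 transcriptional targets of the co-activators YAP and TAZ that are often used to follow them (CTGF, CYR61, ANKRD1, AMOTL2 and NUAK2), the co-activator genes themselves (YAP1, and WWTR1, which encodes TAZ), their DNA-binding partner TEAD1, and the regulators LATS2 and AJUBA. They were taken from the table by symbol, by a rule that uses no measured value, but the list was chosen with earlier results of these data known. The table listed 25737 entries, and all 10 genes had 1 entry each and were among the 12870 that were tested. The libraries came from U87MG, an established human glioblastoma cell line, collected 24 h after transduction with lentivirus. The lentivirus carried GFP in the control group and ID1, ID2, ID3 or ID4 in the others, with 3 libraries in each of 5 groups. All groups, the control included, had received lentivirus, and the promoter that drives the insert is not given in the sources used here. The labels do not say whether the 3 libraries of a group came from separate cultures, so p-values measure the spread between these libraries, which may be technical. All 4 comparisons with GFP share the same 3 GFP libraries.

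The Hippo pathway is a kinase cascade in which the MST kinases activate the LATS kinases, and LATS phosphorylates YAP and TAZ so that they are kept out of the nucleus or degraded. When the cascade is low, as in spread cells on a stiff support, YAP and TAZ enter the nucleus, bind TEAD factors on DNA and turn on genes for secreted matrix-associated proteins, cytoskeletal proteins and feedback inhibitors of the pathway itself. The control of YAP and TAZ is largely by phosphorylation and location, which mRNA counts do not measure. The pathway is known in glioblastoma for its link to invasion and growth. ID proteins are helix-loop-helix proteins without a DNA-binding domain that bind E proteins and block their activity.

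Total counts per library were 11089044 to 15148979, and levels are given in CPM, the usual scaling of a count to the library total. In CPM, 3 counts were worth 0.198 to 0.271, a floor that covers counting error alone. The inserted genes were examined as a check of the labels. ID4 was at 223 ± 12.5 CPM (SD, n = 3) in the libraries labelled ID4 and at most 0.75 CPM elsewhere. ID3 was at 313 ± 11.4 CPM in its own libraries against 221 ± 8.33 in GFP (SD, n = 3 each). It was also raised with the ID2 label, at 287 ± 27.8 CPM (SD, n = 3), so this rise was not particular to the ID3 label. Neither ID1 nor ID2 mRNA was raised under its own label, with ID1 at 250 ± 3.60 CPM against 344 ± 6.96 in GFP, and ID2 at 44.9 ± 1.28 against 85.7 ± 2.81 (SD, n = 3 each). ID2 mRNA was below GFP with the other labels too, at means of 34.3 CPM (ID1), 46.7 CPM (ID3) and 35.9 CPM (ID4). Counts come from 3′ ends, and whether the inserts would be counted at these entries was not tested. Groups are therefore named by their labels, as in libraries labelled ID1. The glioma markers VIM, CD44, NES and SLC1A3 were detected in every library, whereas GFAP and S100B were at or near the floor, and none of 7 endothelial, leukocyte and epithelial markers passed the filter on low values. ID2 replicate 3 stood apart from the other ID2 libraries, with a chi-square per degree of freedom over the tested genes of 10.7 and 11.3 against them, while all other pairs within a group had 2.24 to 5.19. Some values with the ID2 label are also given without this library, and the others are given with all libraries.

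TEAD factors recognise the core letters CATTCC, or GGAATG on the other strand. These letters were searched on both strands in the RefSeq promoter windows of GRCh38.p14, which run from 250 bases before to 50 bases after a gene start and were available for 8 of the 10 genes in 11 windows. CYR61 and TEAD1 had no window. The core was found in 7 windows, each of a different gene, whereas 14% of all 35116 windows held it. The CTGF window held 3 copies, and the ANKRD1 and NUAK2 windows held 2 each. Over all windows, 1.37% had 2 or more copies and 0.128% had 3 or more. The 3 copies of CTGF began 169, 104 and 95 bases before the start, those of ANKRD1 220 and 128 bases before it, and those of NUAK2 197 and 18 bases before it. AMOTL2 had 1 copy, 69 bases before the start, in 1 of its 2 windows. LATS2, YAP1 and AJUBA also had 1 copy each, and neither window of WWTR1 had any. The sequences of 4 targets are printed because their transcripts are compared below, with AMOTL2, CTGF and NUAK2 higher in some comparisons and ANKRD1 in none. The letters are in lower case from 5′ to 3′ on the strand of the gene, which is the minus strand for all 4, and capitals mark the TEAD core. The coordinates are those of GRCh38.p14 and cannot be interchanged with the GRCh37 positions given for the genes. A match describes letters in this window and is not evidence of binding.
CTGF, chr6:131951323-131951622: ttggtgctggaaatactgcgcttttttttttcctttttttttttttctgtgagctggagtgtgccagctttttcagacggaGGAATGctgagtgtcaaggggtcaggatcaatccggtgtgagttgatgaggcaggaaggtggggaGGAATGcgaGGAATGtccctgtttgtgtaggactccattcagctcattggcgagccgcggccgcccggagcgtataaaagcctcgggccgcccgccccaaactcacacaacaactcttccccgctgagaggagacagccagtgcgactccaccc
AMOTL2, chr3:134374398-134374697: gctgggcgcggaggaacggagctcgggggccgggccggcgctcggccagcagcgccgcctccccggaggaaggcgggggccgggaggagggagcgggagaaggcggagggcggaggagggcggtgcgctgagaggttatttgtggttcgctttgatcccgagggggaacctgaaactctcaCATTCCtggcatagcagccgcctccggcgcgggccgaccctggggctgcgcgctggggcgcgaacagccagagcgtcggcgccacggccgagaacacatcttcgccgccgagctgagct
ANKRD1, chr10:90921038-90921337: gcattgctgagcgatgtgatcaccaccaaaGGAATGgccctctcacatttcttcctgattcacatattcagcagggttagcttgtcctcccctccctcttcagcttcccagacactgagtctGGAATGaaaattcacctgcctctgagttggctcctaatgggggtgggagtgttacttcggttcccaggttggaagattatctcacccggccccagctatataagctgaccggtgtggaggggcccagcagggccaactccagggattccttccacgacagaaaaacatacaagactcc
NUAK2, chr1:205321696-205321995: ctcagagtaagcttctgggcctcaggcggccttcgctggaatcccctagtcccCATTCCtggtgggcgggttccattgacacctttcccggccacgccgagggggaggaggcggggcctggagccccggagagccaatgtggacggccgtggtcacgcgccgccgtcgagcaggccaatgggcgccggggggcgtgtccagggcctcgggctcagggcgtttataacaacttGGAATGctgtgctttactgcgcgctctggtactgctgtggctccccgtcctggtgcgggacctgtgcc

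AMOTL2 was higher than in GFP in the libraries of all 4 ID labels, and YAP1 passed the test in no comparison. CTGF and CYR61 were most raised under the ID1 label, but neither was called against every other ID label. WWTR1 was lower than in GFP under the ID1 and ID2 labels. A gene was called when its p from the quasi-likelihood test of edgeR, adjusted by the Benjamini-Hochberg method over all tested genes, was under 0.05. With the ID1 label 4 of the 10 genes were called, where 22.1% of all tested genes were. Of these, CTGF, CYR61 and AMOTL2 were higher (background 12.4%) and WWTR1 was lower (background 9.73%). With the ID2 label 5 genes were called against a background of 35.1%, with AMOTL2, TEAD1 and NUAK2 higher (18.5%) and WWTR1 and AJUBA lower (16.7%). Without ID2 replicate 3 the number was 7, against a background of 34.4% in that fit, since CTGF and CYR61 were then also higher. With the ID3 label, CTGF and AMOTL2 were higher, which is 2 genes against a background of 28.6% in either direction and 15.1% higher. No gene was called lower with the ID3 label by edgeR, DESeq2 or limma (background 13.5%), and 2 were lower at an unadjusted p under 0.05. With the ID4 label, CYR61, AMOTL2 and NUAK2 were higher, which is 3 genes against 21.6% in either direction and 12.1% higher. Here 0 genes were called lower by all 3 tools (background 9.51%), and 0 were lower at an unadjusted p under 0.05. The count of 2 with the ID3 label is near or below its background shares, and the 3 genes higher with ID4 are above the share of 12.1%. With only 10 genes and no test of the list as a set, the counts of none of the 4 labels are taken as a result about the list. The median log2 fold change of the 10 genes was 0.34 with the ID1 label, 0.18 with ID2, 0.03 with ID3 and 0.21 with ID4, whereas that of all tested genes was between -0.004 and 0.001.

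**Figure D1:**
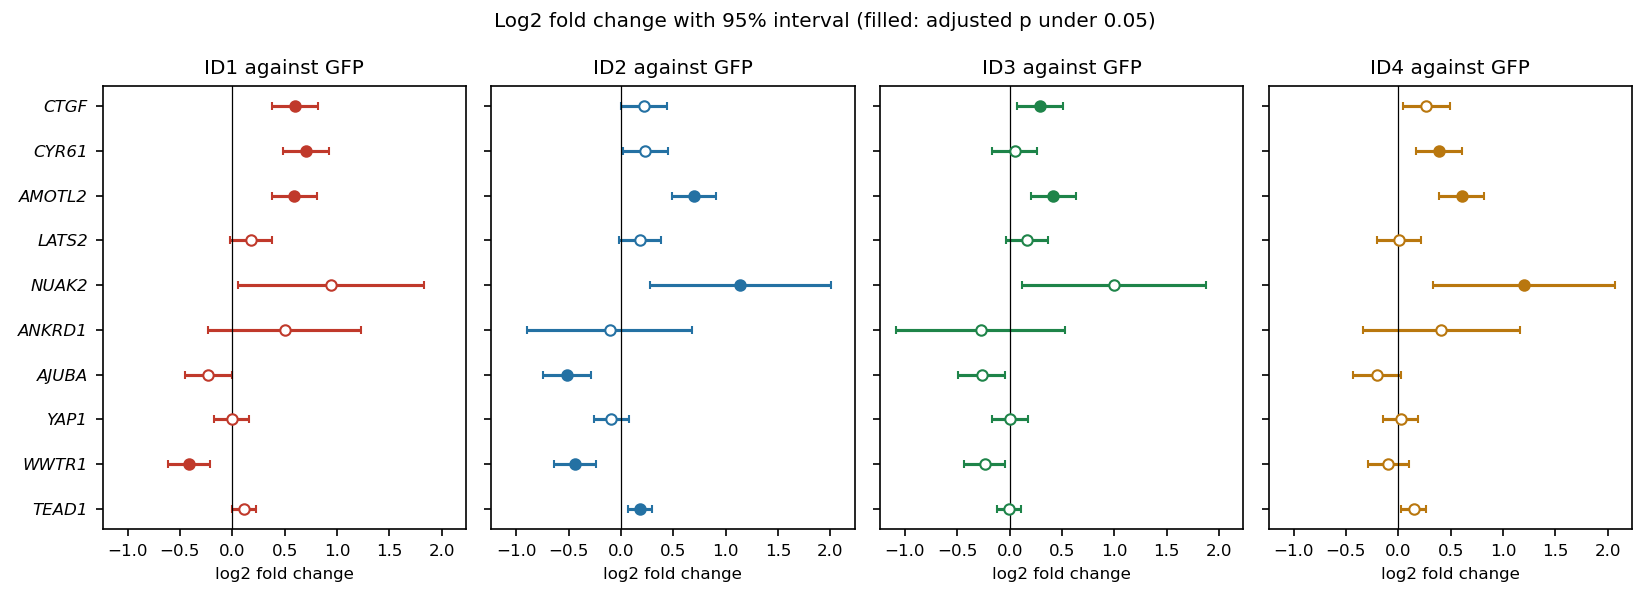
Log2 fold change (x axis) of each gene (y axis) between the libraries of each ID label and GFP, from 3 libraries a group. Points are fitted values, bars are 95% intervals and filled points had an adjusted p under 0.05. AMOTL2 is filled in all 4 panels, from 0.42 to 0.70, and YAP1 lies within 0.10 of 0 in each.

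CTGF and CYR61 are the classic targets of YAP and TAZ and encode secreted proteins of the CCN family, which bind integrins and the extracellular matrix. CTGF lies at chr6:132269316-132272512 on the minus strand of GRCh37. It was at 35.6, 27.8 and 28.2 CPM in the GFP libraries and at 41.4, 48.7 and 50.5 CPM in those labelled ID1. With the ID2 label it was at 38.4, 37.3 and 30.2 CPM, with ID3 at 40.9, 33.2 and 40.0 CPM, and with ID4 at 38.0, 38.1 and 34.8 CPM. All ID1 libraries lay above all GFP libraries, while the ranges of the ID2, ID3 and ID4 labels overlapped that of GFP because of GFP replicate 1. The order of the mean levels was GFP, ID2, ID4, ID3 and ID1. In the comparison of ID1 with GFP, CTGF rose by 0.60 on the log2 scale (standard error 0.11, 95% interval 0.38 to 0.81, adjusted p = 0.000202 by edgeR), which is 1.51-fold. The value stayed between 0.54 and 0.71 with each library left out in turn. With the ID3 label the log2 fold change was 0.29 (adjusted p = 0.0426), and this call was lost without GFP replicate 2 or 3 or without ID3 replicate 1 or 3 (adjusted p = 0.137 to 0.169). With the ID2 and ID4 labels it was 0.22 (adjusted p = 0.116) and 0.27 (adjusted p = 0.0803). Both became calls without GFP replicate 1, the highest control library, at adjusted p = 0.028 and 0.0233. The ID2 value also became a call without ID2 replicate 3 (0.31, adjusted p = 0.0187 by edgeR). In these bulk libraries, a change in the share of cells that express a gene and a change in RNA per cell cannot be told apart.

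CYR61, at chr1:86046444-86050272 on the plus strand, was counted more deeply, with 3879 to 7708 counts a library. It was at 306, 321 and 367 CPM in GFP and at 506, 558 and 575 CPM with the ID1 label. The values were 319.9, 342 and 380.3 CPM with the ID3 label and 407, 469 and 429 CPM with the ID4 label. ID1 libraries lay above all others, ID4 libraries lay above GFP, and ID3 libraries overlapped GFP. The ID2 libraries were split, with 424 and 436 CPM in replicates 1 and 2 and 297 CPM in replicate 3, which is below every GFP library. CYR61 rose by 0.71 (log2) with the ID1 label (standard error 0.10, adjusted p = 2.73e-05 by edgeR) and was called under all 15 alternatives, with values of 0.64 to 0.79. With the ID4 label it rose by 0.39 (standard error 0.10, adjusted p = 0.00925). That call was lost without GFP replicate 1 (0.32, adjusted p = 0.0603) or ID4 replicate 2 (0.34, adjusted p = 0.0534). With the ID3 label the log2 fold change was 0.05, with a 95% interval of -0.17 to 0.27. With the ID2 label it was 0.23 (adjusted p = 0.0875) with all libraries and 0.39 (adjusted p = 0.000193) without ID2 replicate 3. It also became a call without GFP replicate 3 (0.31, adjusted p = 0.0412).

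**Figure D2:**
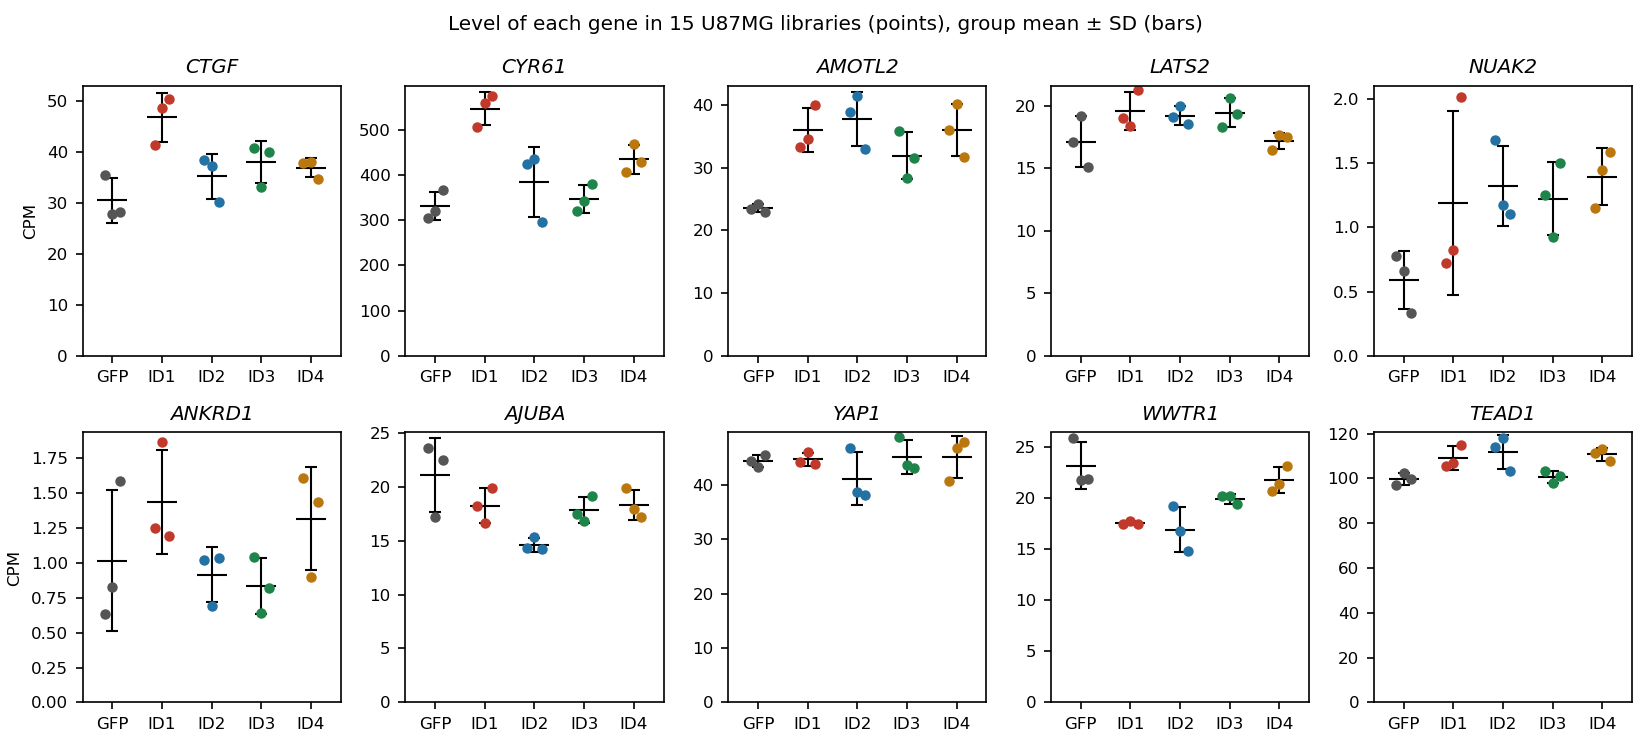
Level in CPM (y axis, from 0) of each gene in the 3 libraries of each group (x axis), with points for libraries in order of replicate number and bars for the group mean ± SD. All 12 ID libraries of AMOTL2 lie above the GFP libraries, and CYR61 of ID2 replicate 3, at 297 CPM, lies apart from the other ID2 libraries.

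AMOTL2 and LATS2 are targets of YAP and TAZ that also inhibit them. AMOTL2 encodes a protein of the angiomotin family that binds YAP and holds it at cell junctions and in the cytoplasm. It lies at chr3:134074189-134094321 on the minus strand. AMOTL2 was at 23.5, 24.3 and 22.9 CPM in GFP, where it varied least among the groups. It was at 33.3, 34.5 and 39.9 CPM with the ID1 label and at 38.8, 41.4 and 33.0 CPM with the ID2 label. The values were 35.9, 28.4 and 31.5 CPM with the ID3 label and 36.0, 40.1 and 31.8 CPM with the ID4 label. None of the 12 ID libraries overlapped the GFP range, and the 4 ID groups overlapped each other. The log2 fold change from GFP was 0.59 for ID1 (standard error 0.10, adjusted p = 0.000182 by edgeR), 0.70 for ID2 (standard error 0.10, adjusted p = 1.43e-05), 0.42 for ID3 (standard error 0.10, adjusted p = 0.00407) and 0.61 for ID4 (standard error 0.10, adjusted p = 0.000167). These are changes of 1.51-fold, 1.62-fold, 1.34-fold and 1.52-fold. AMOTL2 was called in all 4 comparisons under each of the 15 alternatives, and with each library left out in turn the lowest value was 0.33, with the ID3 label. Of all tested genes, 6.11% were higher in all 4 comparisons and 4.16% were lower in all 4, and AMOTL2 was the only one of the 10 genes among them.

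LATS2 encodes a kinase that phosphorylates YAP and TAZ. It lies at chr13:21547175-21635725 on the minus strand. Its levels were 17.1, 19.1 and 15.1 CPM in GFP, 19.01, 18.4 and 21.3 CPM with the ID1 label, 19.1, 20.01 and 18.5 CPM with ID2, 18.3, 20.6 and 19.4 CPM with ID3, and 16.5, 17.7 and 17.5 CPM with ID4. All groups overlapped GFP. The log2 fold changes of 0.18, 0.18, 0.16 and 0.01 did not pass the test (adjusted p = 0.152 to 0.975 by edgeR). The 95% intervals reached at most 0.39, so a change of the size seen for AMOTL2 with the ID2 label lay outside them.

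NUAK2 and ANKRD1 were near the limit of detection, so their values are given as counts. NUAK2 is a kinase related to AMPK that is induced by YAP and TAZ, and it lies at chr1:205271191-205290873 on the minus strand. It had 11, 8 and 4 counts in GFP, 11, 11 and 27 with the ID1 label, 23, 17 and 16 with ID2, 18, 13 and 20 with ID3, and 15, 16 and 21 with ID4. The libraries labelled ID2, ID3 and ID4 were all above GFP, whereas ID1 replicates 1 and 2 had as many counts as the highest GFP library and only replicate 3 had more. The log2 fold change was 1.14 with the ID2 label (standard error 0.42, adjusted p = 0.0372 by edgeR) and 1.20 with the ID4 label (standard error 0.42, adjusted p = 0.0449). The ID2 call was lost without GFP replicate 2 or 3 or ID2 replicate 1 (adjusted p = 0.0653 to 0.15), and the ID4 call was lost whichever library was left out (adjusted p = 0.0539 to 0.163). DESeq2 gave adjusted p = 0.0531 and 0.06 for these comparisons. With the ID1 and ID3 labels the values were 0.94 (adjusted p = 0.125) and 0.99 (adjusted p = 0.0849).

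ANKRD1 encodes an ankyrin repeat protein found in the nucleus and in muscle sarcomeres and is a strong YAP and TAZ target in many cell types. It lies at chr10:92671853-92680844 on the minus strand. It had 9, 10 and 19 counts in GFP, 19, 25 and 16 with the ID1 label, 14, 10 and 15 with ID2, 15, 9 and 11 with ID3, and 21, 10 and 19 with ID4. All groups overlapped GFP, and the SD of the GFP levels was 49.7% of their mean. The log2 fold changes were 0.50, -0.11, -0.28 and 0.41 in the order of the labels, and none passed the test (adjusted p = 0.352 to 0.86 by edgeR). The 95% interval with the ID1 label ran from -0.23 to 1.23. It holds both 0 and the CTGF value of 0.60, so whether ANKRD1 rose like CTGF cannot be decided from these libraries.

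AJUBA encodes a LIM domain protein that binds LATS kinases and restrains them. It lies at chr14:23440386-23451760 on the minus strand. It was at 23.6, 17.2 and 22.4 CPM in GFP, 18.2, 16.6 and 19.8 CPM with the ID1 label, 14.3, 15.4 and 14.2 CPM with ID2, 17.5, 16.8 and 19.1 CPM with ID3, and 19.9, 17.9 and 17.2 CPM with ID4. GFP replicate 2 was low, and only the ID2 libraries were all below it. AJUBA fell by 0.51 on the log2 scale with the ID2 label (standard error 0.11, adjusted p = 0.000951 by edgeR) and did so under all 14 alternatives that tested it, by 0.43 to 0.64. With the ID1, ID3 and ID4 labels the log2 fold changes were -0.23, -0.27 and -0.20 (adjusted p = 0.151, 0.073 and 0.206). Without GFP replicate 2 they were -0.35, -0.39 and -0.33 and all passed (adjusted p = 0.0219, 0.0092 and 0.0351). Whether AJUBA was lower with these labels thus rested on that control library.

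Of the co-activators and their partner, WWTR1 fell in a pair of comparisons, TEAD1 rose in 1 and YAP1 passed the test in none. YAP1, at chr11:101981178-102104155 on the plus strand, was at 44.4, 43.3 and 45.5 CPM in GFP and 44.2, 46.1 and 43.9 CPM with the ID1 label. It was at 46.9, 38.6 and 38.1 CPM with ID2, 48.8, 43.6 and 43.1 CPM with ID3, and 40.8, 46.9 and 47.9 CPM with ID4. All groups overlapped GFP. The log2 fold changes from GFP were -0.01, -0.09, 0.00 and 0.02, and their 95% intervals together spanned -0.26 to 0.19. The sign for the ID1, ID3 and ID4 labels changed with the library left out, and for ID1 also with scaling by total counts alone.

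WWTR1 encodes TAZ, the paralog of YAP, and lies at chr3:149235022-149454501 on the minus strand. It was at 25.8, 21.8 and 21.8 CPM in GFP and at 17.5, 17.8 and 17.5 CPM with the ID1 label. The values were 19.2, 16.8 and 14.8 CPM with ID2, 20.2, 20.2 and 19.4 CPM with ID3, and 20.7, 21.4 and 23.2 CPM with ID4. The libraries labelled ID1, ID2 and ID3 were all below the GFP libraries, and those labelled ID4 overlapped them. WWTR1 fell by 0.42 (log2) with the ID1 label (standard error 0.10, adjusted p = 0.00285 by edgeR) and by 0.44 with the ID2 label (standard error 0.10, adjusted p = 0.000982). Both calls were kept in all 14 alternatives that tested WWTR1. Without ID2 replicate 3 the ID2 value was -0.36 (adjusted p = 0.00592 by edgeR). With the ID3 label the value was -0.24 (adjusted p = 0.063), and with ID4 it was -0.10 with a 95% interval of -0.29 to 0.10. WWTR1 was therefore lower in the ID1 libraries in which CTGF, CYR61 and AMOTL2 were higher.

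TEAD1 encodes a DNA-binding factor through which YAP and TAZ act and lies at chr11:12695968-12966284 on the plus strand. It was at 97.2, 102 and 99.8 CPM in GFP, 106, 107 and 115 CPM with the ID1 label, 114, 118 and 104 CPM with ID2, 103, 98.0 and 101 CPM with ID3, and 111, 113 and 108 CPM with ID4. The libraries labelled ID1, ID2 and ID4 lay above the GFP range by small margins, and those labelled ID3 overlapped it. With the ID2 label TEAD1 rose by 0.18 on the log2 scale (standard error 0.06, adjusted p = 0.0159 by edgeR), or by 0.23 (adjusted p = 0.00305) without ID2 replicate 3. The call was lost without GFP replicate 1, ID2 replicate 1 or ID2 replicate 2 (adjusted p = 0.051 to 0.0812) and in a fit of the ID2 and GFP libraries alone (adjusted p = 0.0744). The values with the ID1, ID3 and ID4 labels were 0.11, -0.01 and 0.15 (adjusted p = 0.175, 0.944 and 0.0689).

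**Figure D3:**
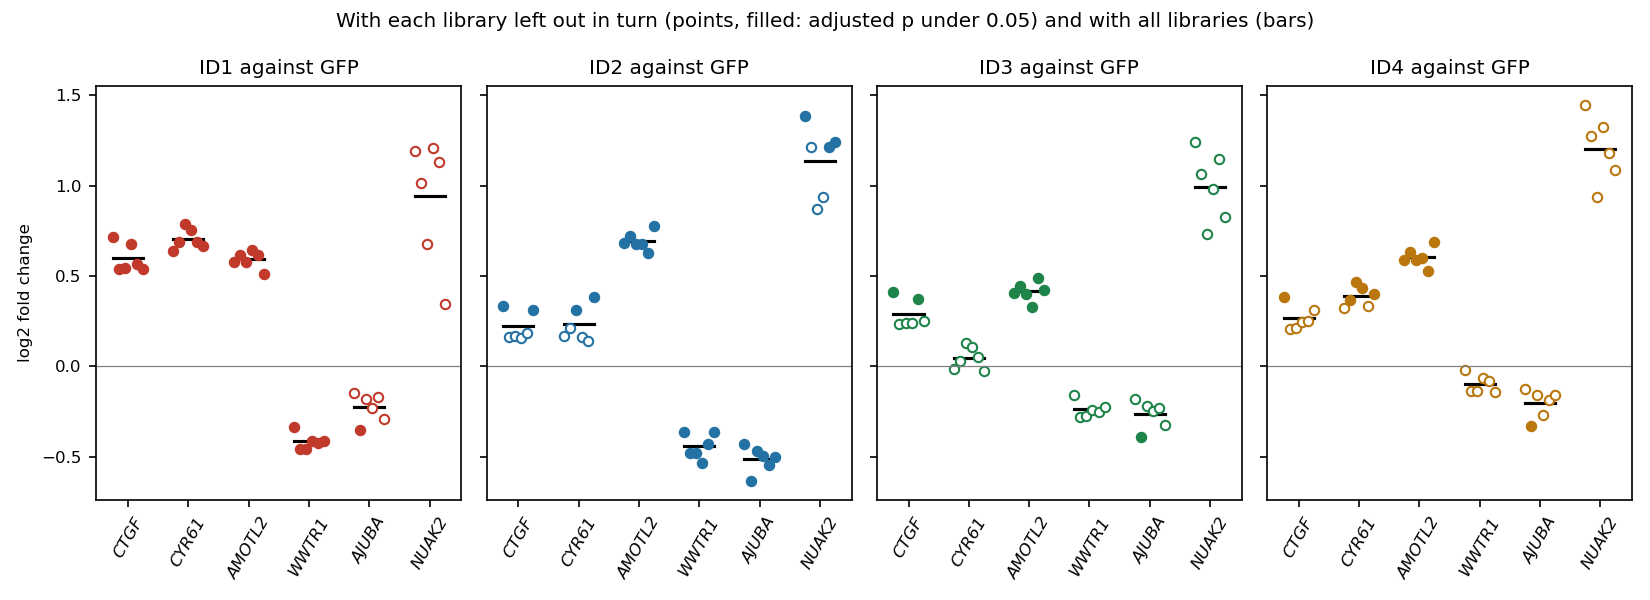
Log2 fold change from GFP (y axis) of 6 genes (x axis) with each of the 6 libraries compared left out in turn (points, filled where the adjusted p was under 0.05) and with all libraries (black bars). AMOTL2 keeps filled points in all panels, whereas the NUAK2 points with the ID4 label are all open.

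The groups with different ID labels were also compared with each other. Between the libraries labelled ID1 and ID2, 2 of the 10 genes were called against 18.6% of all tested genes. CYR61 was higher with the ID1 label by 0.47 (log2, standard error 0.10, adjusted p = 0.00248 by edgeR), and by 0.32 (adjusted p = 0.00378) without ID2 replicate 3. CTGF was higher by 0.38 (standard error 0.10, adjusted p = 0.0123), and by 0.28 (adjusted p = 0.0524) without ID2 replicate 3. The CTGF call was also lost without ID1 replicate 2 or 3 (adjusted p = 0.0559 and 0.0715). Between ID1 and ID3, CYR61 was higher with the ID1 label by 0.66 (standard error 0.10, adjusted p = 0.000277), the 1 gene called against a background of 9.18%. CYR61 kept this call under all 15 alternatives. CTGF was higher with the ID1 label by 0.305 but did not pass the test (adjusted p = 0.0636 by edgeR). Between ID1 and ID4, no gene was called by edgeR, DESeq2 or limma (background 4.87%), while CTGF and CYR61 were higher and WWTR1 was lower with the ID1 label at an unadjusted p under 0.05 (adjusted p = 0.06 to 0.0859).

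Between ID2 and ID3, TEAD1 was higher with the ID2 label by 0.19 (standard error 0.06, adjusted p = 0.0272 by edgeR), the 1 gene called against a background of 15%. Without ID2 replicate 3 the TEAD1 value was 0.24 (adjusted p = 0.0048). In that fit 3 genes were called, and its background share is not given here, so this count is not a result about the list. Without any other of the 6 libraries the TEAD1 call was lost (adjusted p = 0.0602 to 0.12). Between ID2 and ID4, WWTR1 fell by 0.35 with the ID2 label (standard error 0.10, adjusted p = 0.0147), the 1 gene called against 18.6%. That call was lost without ID2 replicate 3 (-0.27, adjusted p = 0.0705) or ID4 replicate 3 (-0.30, adjusted p = 0.0753). Between ID3 and ID4, CYR61 was lower with the ID3 label at -0.34 (standard error 0.10, adjusted p = 0.0364), the 1 gene called against 11.3%. The call held in 1 of the 6 fits with a library left out and was lost in the other fits (adjusted p = 0.0554 to 0.184). With all libraries, AMOTL2 differed between no groups with different ID labels at the adjusted threshold, with log2 differences of -0.19 to 0.28. The nearest to it was ID2 against ID3, at 0.28 (adjusted p = 0.0607 by edgeR). Without ID2 replicate 3, AMOTL2 with the ID2 label was 0.78 above GFP (log2), and its difference from ID3 in that fit is not given here.

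Other genes of the pathway were taken from lists drawn up by function, with earlier results of these data known. Of 16 further targets of YAP and TAZ, 15 were tested, all but FOXF2. With the ID1 label 8 were higher and 1 was lower, with ID2 6 and 1, with ID3 5 and 2, and with ID4 7 and 2. The called genes were 60%, 46.7%, 46.7% and 60% of the 15, against 22.1%, 35.1%, 28.6% and 21.6% of all tested genes in the same comparisons. These shares are a description, since the list was not chosen blind to these data. The background was not matched to it in level, and no test of the list as a set was run. Their median log2 fold changes were 0.25, 0.24, 0.02 and 0.16, again against medians of all tested genes of -0.004 to 0.001. Without ID2 replicate 3 the ID2 numbers were 9 higher and 1 lower (background 18% and 16.4%), with a median of 0.26. CCDC80, which encodes a secreted matrix protein, was at 1309.8 to 1480.3 CPM in GFP and rose by 1.04, 1.43, 0.93 and 0.73 on the log2 scale. TGFB2, a ligand of the TGF-beta family, rose by 1.03, 1.15, 0.98 and 0.59. RBMS3, an RNA-binding protein, rose by 0.42, 0.56, 0.41 and 0.42. CRIM1, a transmembrane protein that binds growth factors, rose by 0.38, 0.23, 0.39 and 0.40, with the ID2 call lost without GFP replicate 3 or ID2 replicate 2 (adjusted p = 0.0535 and 0.0542 by edgeR). IGFBP3, a secreted protein that binds insulin-like growth factors, went the other way in all 4 comparisons, with log2 fold changes of -0.60, -1.12, -0.61 and -0.82. The further targets thus did not move in a single direction.

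The upstream list holds 20 Hippo kinases, adaptors and membrane proteins, of which 17 were tested. With the ID1 label 2 were higher and 2 lower, with ID2 2 and 1, with ID3 3 and 3, and with ID4 0 and 3. The called genes were 23.5%, 17.6%, 35.3% and 17.6% of the 17, against the same background shares of 22.1%, 35.1%, 28.6% and 21.6%, so that these counts are near or below the background and are not a result about the list. Their median log2 fold changes were 0.04, -0.12, -0.03 and -0.09. Without ID2 replicate 3 the ID2 numbers were 1 higher and 1 lower. FAT4, an atypical cadherin upstream of the pathway, rose with the ID2 and ID3 labels, by 0.40 (adjusted p = 0.0102 by edgeR) and 0.54 (adjusted p = 0.00117), and its value with ID4 was -0.33 (adjusted p = 0.0677). The ID2 call of FAT4 was lost without GFP replicate 1 (adjusted p = 0.0858), and its ID4 value passed without the same library (adjusted p = 0.0185). MOB1A, a co-activator of the LATS kinases, fell by 0.67 with the ID3 label (adjusted p = 0.0163) at 35 to 81 counts in the libraries compared, a call lost in 4 of the 6 fits with a library left out, those without GFP replicate 1 or 2 or ID3 replicate 2 or 3 (adjusted p = 0.0553 to 0.0924). STK4, which encodes the kinase MST1, and MAP4K4, another kinase that can activate LATS, were each lower in 3 comparisons, and WWC2, an adaptor of LATS, was higher in 3. These 3 genes were chosen for mention after their values were seen.

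Of 7 further TEAD and VGLL factors, 5 were tested, and in each comparison with GFP at least 1 was higher and 1 was lower. In the order of the labels, 2, 2, 3 and 2 were called, which is 40%, 40%, 60% and 40% of the 5. The shares of all tested genes were 22.1%, 35.1%, 28.6% and 21.6%. VGLL3, a TEAD cofactor of the vestigial-like family, was at 48.0 to 50.1 CPM in GFP and at 90.7 to 161 CPM in the ID libraries, without overlap. Its log2 fold changes were 1.08, 1.65, 1.01 and 0.94. TEAD2, a paralog of TEAD1, was at 54.7 to 56.6 CPM in GFP and 27.1 to 47.0 CPM in the ID libraries, and it fell by 0.45, 0.89, 0.41 and 0.35 on the log2 scale. VGLL3 and TEAD2 kept these calls in every alternative. Of the 4 other CCN family genes, 3 were tested, and 3, 3, 3 and 2 were called, all higher. The shares of all tested genes called higher were 12.4%, 18.5%, 15.1% and 12.1%. With so few genes, the counts of these lists are not taken as a result about them. WISP2 (CCN5) was at 4.23 to 5.11 CPM in GFP and at 14.03 to 15.4 CPM with the ID1 label, 44.7 to 53.1 CPM with ID2, 21.4 to 22.6 CPM with ID3 and 9.02 to 11.05 CPM with ID4. It rose by 1.70, 3.43, 2.27 and 1.15 (log2), which is 10.8-fold with the ID2 label, so that the ID2 libraries were highest for WISP2 and the ID1 libraries were highest for CTGF and CYR61. NOV (CCN3) rose by 0.74, 0.41, 0.36 and 0.51. The NOV calls with ID2 and ID3 were lost without GFP replicate 3 (adjusted p = 0.0643 and 0.147), and that with ID3 also without GFP replicate 2 or ID3 replicate 1 or 3 (adjusted p = 0.0595 to 0.0764). WISP1, mentioned after its values were seen, was higher with all labels but ID4 (0.11).

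**Figure D4:**
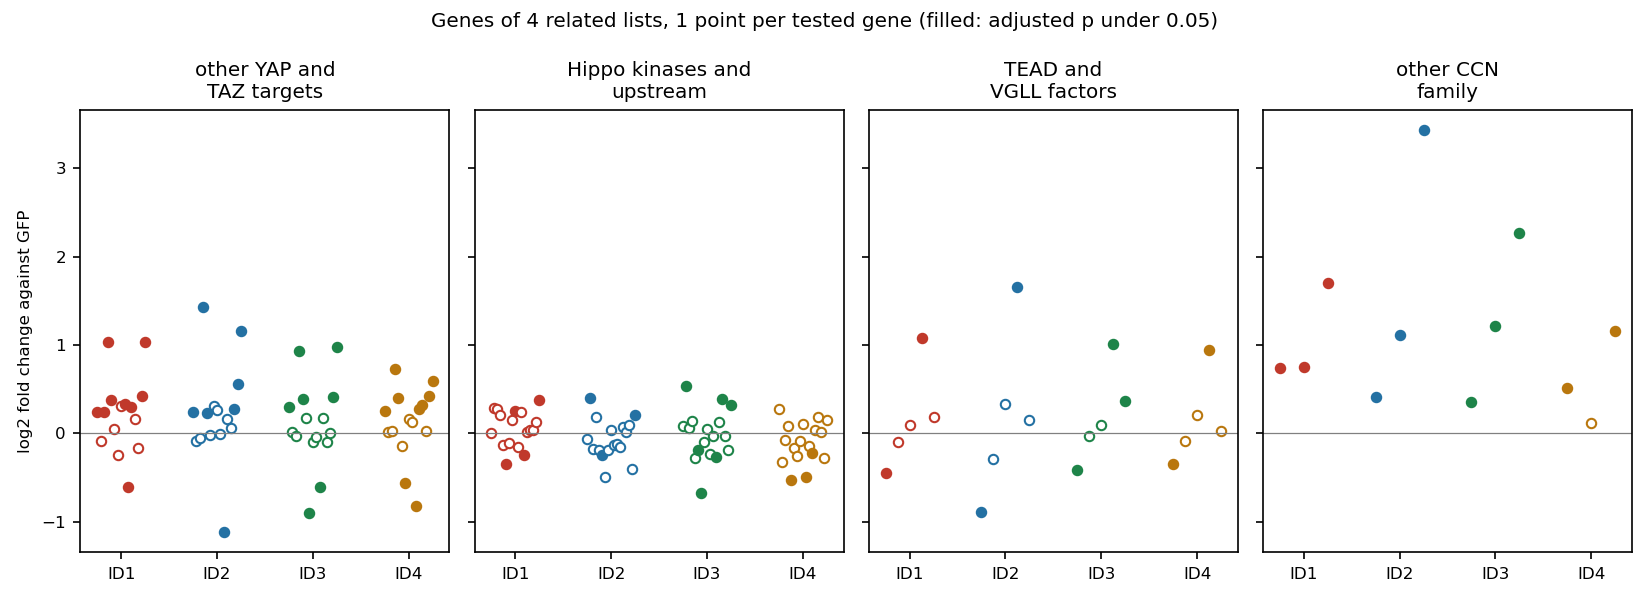
Log2 fold change from GFP (y axis) of the tested genes of 4 related lists in the libraries of each ID label (x axis), with 1 point per gene, filled where the adjusted p was under 0.05. The highest point of the CCN panel is WISP2 with the ID2 label at 3.43, and the further targets lie on both sides of 0.

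The tested genes whose pattern over the 5 group means was most like that of a given gene were ranked by the root mean square difference of centred log2 CPM. This is a description over 5 means. For CTGF they were FOXD1 (0.04), SEPT11 (0.05) and MICAL2 (0.05). For CYR61 they were PAXIP1-AS2 (0.05), ARIH2OS (0.07) and ALDH1B1 (0.07), all high in ID1 and low in GFP and ID3. For ANKRD1 they were ZNF280C (0.03), CCRL2 (0.06) and SLC16A12 (0.06). ANKRD1 had only 9 to 25 counts a library and was called in no comparison, so its pattern may be no more than spread between libraries. For YAP1, which was nearly flat, they were C1QBP (0.01), ELAC2 (0.01) and RPAIN (0.01).

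The members lie on 7 chromosomes, and the median log2 fold change of the genes near each was small, at -0.11 to 0.18. A median near 0 means no shared shift, and single neighbours may have changed in either direction. Within 5 Mb of AMOTL2, the median log2 fold change of 42 other tested genes was -0.03 to 0.04 over the 4 comparisons. It was 0.00 to 0.08 for 31 genes around CTGF and -0.04 to 0.10 for 30 genes around CYR61. For WWTR1 it was -0.03 to 0.12 over 27 genes. The largest median lay around YAP1, at 0.18 over 18 genes, where YAP1 itself did not pass the test.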

How the data were processed

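RNA from 15 U87MG libraries was made into 3′ QuantSeq libraries by a company on the authors' behalf. For every gene symbol, the table that the authors deposited holds a raw count and a normalized log2 value per library. The submitters' processing notes name hg19 (GRCh37), Bowtie2 and BWA, and the counting tool is not given in the sources used here. The name of the deposited table calls its log2 values quantile normalized. Columns made equal in that way would hold the same value at the same rank, but across the 15 libraries these differed by more than 0.01 at 72% of ranks and by up to 1.02, so how the log2 values were scaled is uncertain. They set the filter and enter the limma alternative, and the main test uses the counts. Per the labels, groups were taken from the lentivirus each library received. The counts were tested in edgeR (version 4.0.16, under R version 4.3.3) after TMM scaling, whose factors were 0.978 to 1.03, with 1 mean per group over all 15 libraries and a quasi-likelihood test with Benjamini-Hochberg adjustment and a threshold of 0.05. The 12870 entries in the upper 50% by mean deposited log2 value (3.22 or more) were tested. CPM are counts divided by the library total, so log2 fold changes can differ slightly from ratios of CPM. Scripts were tested on simulated data.

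The members and gene lists were chosen with earlier results of these data known. Named genes are the 10 members, ID1 to ID4, and of each other list the genes called in the same direction in all 4 comparisons with GFP (at most 4 per direction by mean absolute log2 fold change) or else the 2 with the largest mean absolute change, and the 3 genes most like CTGF, CYR61, ANKRD1 and YAP1. Alternatives were other scalings and filters on low values, DESeq2 1.42.0, limma 3.58.1 with trend on the deposited log2 values, a fit of only the groups compared, the replicate number as a block, and leaving out each library. For 3 libraries against 3, an exact permutation test cannot go below p = 0.10 and was not used. Gene positions came from GENCODE lifted to GRCh37, with 97.1% of tested genes matched. Levels of different genes were not compared, since counts come from 3′ ends. Figures were drawn with matplotlib 3.10.9.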

Additional observations from a re-analysis of the deposited data

Results flagged for a closer look

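The following differences between groups were past the threshold in the test of the difference itself (quasi-likelihood test of edgeR, Benjamini-Hochberg method), so that the response relative to GFP differed between ID labels. For CYR61 the log2 difference was 0.47 between ID1 and ID2, 0.66 between ID1 and ID3, and -0.34 between ID3 and ID4. For CTGF it was 0.38 between ID1 and ID2. For TEAD1 it was 0.19 between ID2 and ID3, and for WWTR1 it was -0.35 between ID2 and ID4. The CYR61 differences of ID1 from ID2 and ID3 kept their calls in every alternative, and the other differences lost theirs without at least 1 library, as given in the report.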

How the results depend on the processing

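Over the comparisons with GFP and the called differences between ID labels, the 10 genes gave 669 values under alternatives, of which 591 kept direction and side of the threshold, 43 were no longer called, 12 became called and 23 changed sign, all 23 in values that were never called. The other named genes gave 644 values, of which 628 kept both, 12 were no longer called, 4 became called and 0 changed sign. Most of these genes were chosen because they were called in all 4 comparisons with GFP. That choice favours kept calls, so these numbers are not set against those of the 10 genes. The numbers of the 10 genes called moved as follows. In the fit of only the groups compared they were 2 (ID1 against ID3), 3 (ID1 against ID4), 0 (ID2 against ID3) and 0 (ID2 against ID4). With all genes that had a count they were 2 in each of these comparisons. DESeq2 gave 2 for ID1 against ID3 and 0 for ID3 against ID4, and scaling by total counts alone gave 0 for ID2 against ID3. Among the upper 25% of genes, where 5 of the 10 were tested, the number was 2 for ID2 against GFP and 0 for ID2 against ID4. With the replicate block it was 1 for ID3 against GFP, since CTGF was lost (adjusted p = 0.0513), and 2 for ID4 against GFP, since NUAK2 was lost (adjusted p = 0.0567), and the block changed no other call of the 10 genes. Correlations of the deviations of libraries with equal numbers were -0.33 to 0.30 over 30 pairs. In 2 of 10 pairs of groups all 3 were above 0, at 0.10 to 0.18 for GFP with ID3 and 0.05 to 0.30 for ID2 with ID4, and in 0 were all 3 above 0.1, so the numbers are not taken to pair the libraries. With each library left out in turn the numbers were 4 to 5 (ID1 against GFP), 3 to 7 (ID2), 1 to 2 (ID3) and 1 to 3 (ID4), and 1 to 2 (ID1 against ID2), 1 to 2 (ID1 against ID3), 0 to 1 (ID1 against ID4), 0 to 3 (ID2 against ID3), 0 to 1 (ID2 against ID4) and 0 to 1 (ID3 against ID4).

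Signs changed in small log2 values. YAP1 with the ID1 label was 0.01 with total counts alone, 0.004 among the upper 25% of genes and -0.030 to 0.014 with a library left out, and with ID3 and ID4 it was -0.049 to 0.033 and -0.024 to 0.09 with a library left out. TEAD1 with the ID3 label was 0.014 with total counts alone, 0.01 among the upper 25% of genes and -0.034 to 0.015 with a library left out. ANKRD1 was -0.39 to 0.35 with ID2 and -0.56 to 0.19 with ID3, CYR61 was -0.025 to 0.131 with ID3, and LATS2 was -0.075 to 0.094 with ID4, each with a library left out. The number of all tested genes called moved by over 1.5 times for ID1 against ID4 (627, and 1064 in the fit of only these groups or 363 at the lowest with a library left out), ID2 against ID3 (1935, and 1073 in the fit of only these groups), ID1 against ID3 (1182, and 634 at the lowest) and ID3 against ID4 (1450, and 800 at the lowest). The cause was not tested. NUAK2 and ANKRD1 had 4 to 27 counts a library and wide intervals, and the shares of counting error and of spread between libraries in these were not tested.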
